A study of Mus musculus with 24 samples.

Results

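The genes described are the interferon-inducible GTPases Gbp2, Gbp3, Gbp4, Gbp5, Gbp7, Gbp8, Gbp9, Igtp, Irgm1 and Iigp1, chosen by symbol from the count table: 10 of its 53465 gene identifiers. RNA was measured in natural killer (NK) cells, which are cytotoxic innate lymphocytes. They were sorted at day 14 from B16F10 tumours, formed by a mouse melanoma line placed under the flank skin of wild-type female B6 mice. The 4 populations were the CD69- and CD69+ cells among CD11b+ and among CD27+ NK cells, with 6 libraries each and 100 cells sorted for a library. CD11b is an integrin chain of mature NK cells, CD27 a co-stimulatory receptor of less mature ones, and CD69 a lectin of recently activated or tissue-resident cells. All populations came from the same kind of tumour and strain, so the libraries hold no untreated or tumour-free NK cells. The labels call the cell type melanoma, while the design text names NK populations.

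Guanylate-binding proteins (GBPs) and immunity-related GTPases (IRGs) are produced in many cell types after interferon, above all interferon gamma, which signals through its receptor and JAK kinases and induces the transcription factor IRF1. The proteins gather on membranes around intracellular bacteria and parasites and help to break them open, and GBPs also promote inflammasome signalling. Among the IRGs, Igtp (also called Irgm3) and Irgm1 belong to the regulatory class that sits on the cell's own membranes and restrains the effector class, to which Iigp1 (Irga6) belongs. NK cells are a main source of interferon gamma and also respond to it.

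The promoter sequences show the letters through which this family is known to be reached by interferon. RefSeq promoter windows (build GRCm38.p6, 250 bases before to 50 bases after the start) were found for 6 of the 10 genes, in 7 windows. The core of the interferon-stimulated response element, GAAA, any 2 bases and again GAAA, on either strand, stood in 6 of the 7 windows and so in all 6 genes, against 3.44% of 32851 promoter windows. The core of the gamma-activated site (GAS), TTCNNNGAA on either strand, stood in 3 of the 7, against 8.30%, and both cores together were in 0.454% of all windows. The stretches below, shown because each gene with a window held this core, have it in capitals and run in the direction of transcription. Gbp2 at chr3:142620593-142620622, Gbp3 at chr3:142559971-142560040, Gbp5 at chr3:142496738-142496807, Gbp7 at chr3:142530252-142530321 and Igtp at chr11:58199491-58199555 are on the plus strand, and Irgm1 at chr11:48871421-48871478 is on the minus strand.
Gbp2: aactcttttagTTTCACTTTCactgtctta
Gbp3: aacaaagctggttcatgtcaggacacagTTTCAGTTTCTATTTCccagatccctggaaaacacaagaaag
Gbp5: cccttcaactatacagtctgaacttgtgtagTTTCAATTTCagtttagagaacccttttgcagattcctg
Gbp7: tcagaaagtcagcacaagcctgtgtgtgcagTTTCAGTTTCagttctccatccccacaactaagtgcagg
Igtp: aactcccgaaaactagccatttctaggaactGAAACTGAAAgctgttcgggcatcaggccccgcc
Irgm1: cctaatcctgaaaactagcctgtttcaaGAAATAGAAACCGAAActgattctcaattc

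In the 4 GBP genes the core was read on the strand opposite to the gene, and in Igtp and Irgm1 on the same strand as the gene. Gbp3 and Irgm1 each held 2 overlapping copies. The core began at position -59 from the RefSeq start in Gbp2, -45 in Gbp3, -165 in Gbp5, -53 in Gbp7, -34 in Igtp and -30 in Irgm1. In Igtp a GAS core began at -45, so the 2 cores lay 11 bases apart from first base to first base. The same spacing of 11 bases was found in the related genes Irgm2, Tgtp1, Tgtp2 and Gm12185, whose GAS cores began at -75, -88, -81 and -86. Windows were found for 11 of 19 related genes, of which 7 held the response element core and 5 a GAS core. Gm12250, another related gene, held response element cores at -91 and -46, with a GAS core between them at -61. In Gbp7 GAS cores began at -106 and -87, and in Gbp5 at -245 and -52. The 2 cores overlapped in none of these windows. A match of letters is a description of the sequence and does not show that a factor binds there.

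Several of the genes lie beside or inside each other in GENCODE M21 (GRCm38), which bears on what a count can mean. Gbp5 (142493978 to 142522344), Gbp7 (142530342 to 142550149), Gbp3 (142560026 to 142573209) and Gbp2 (142620602 to 142638008) follow each other on the plus strand of chromosome 3. On the minus strand of chromosome 5, Gbp8 (105014150 to 105139540), Gbp9 (105077630 to 105139539) and Gbp4 (105115767 to 105139586) overlap and share up to 61 exon bases. Irgm1 (48861968 to 48871683, minus strand) and Igtp (58199556 to 58207591, plus strand) lie on chromosome 11, and Igtp shares 162 exon bases with Irgm2. Iigp1 (60376027 to 60392634, plus strand) lies on chromosome 18. Stretches of 50 bases that also occur in transcripts of another gene made up 18.1% of Gbp8, 12.7% of Gbp7, 11.8% of Igtp, 8.05% of Gbp9 and 7.78% of Gbp4, and between 0.38% (Irgm1) and 3.75% (Gbp3) of the other 5 genes. Gbp7 shares 637 exon bases (11.35%) with Gm43802 on the same strand. Counts of Gbp4, Gbp8 and Gbp9, of Igtp and Irgm2, and of Gbp7 may therefore have been split or left out at shared stretches. The strand setting of the counting is not given.

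Total counts ran from 1213914 to 2671533 per library, and 3 counts were worth 1.12 to 2.47 CPM (the number of counts per 1e6 of the library, scaled with a trimmed-mean factor). Summed over 10 NK markers, all of them detected in every population, the level was 28141 to 33159 CPM in CD11b+CD69-, 22092 to 28166 in CD11b+CD69+, 8466 to 14603 in CD27+CD69- and 13723 to 17302 in CD27+CD69+ libraries. T cell markers summed to 868 to 1216, 1143 to 1502, 1009 to 2623 and 2139 to 3451 CPM in the same order, with Cd4 and Cd8b1 at 0 in CD11b+CD69-, Cd8a at 0 in CD11b+CD69+ and Cd4 at 0 in CD27+CD69+. Fibroblast markers reached at most 7.99, 0 and 5.74 CPM in the CD11b+CD69-, CD11b+CD69+ and CD27+CD69+ libraries, but 1715 to 7986 CPM in 5 of the 6 CD27+CD69- libraries. Melanoma markers, which are markers of the tumour itself, summed to at most 4.08, 28.1 and 65.5 CPM in the same 3 populations and to 1.33 to 5709 CPM (median 123) in CD27+CD69-, with the highest sums in replicates 6 (5709), 4 (297) and 5 (208). Tyr, Tyrp1, Mitf, Sox10 and Slc45a2 were at 0 in CD11b+CD69-, Pmel and Sox10 in CD11b+CD69+, and Tyr in CD27+CD69+. In bulk RNA of sorted cells, fewer cells of a type and less RNA per cell cannot be told apart.

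The library CD27+CD69- replicate 5 stood apart from the other 23. It held the highest value of all 24 libraries for 5 of the 10 genes: Gbp2 (511 CPM), Gbp3 (224), Igtp (1127), Irgm1 (986) and Iigp1 (1195). The other 5 libraries of its population had medians of 109, 86.9, 239.7, 342 and 25.3 CPM for these genes, so Igtp was 4.70 times and Iigp1 47.3 times their median. Gbp4, Gbp7 and Gbp8 were at 1.22, 1.07 and 1.27 times their median there. This library had 0 CPM of the fibroblast markers and 13142 CPM of the NK markers. It was the only library with counts of the endothelial markers Cdh5 (16 counts, 6.8 CPM), Kdr (39 counts, 16.5 CPM) and Emcn (137 counts, 57.9 CPM), and it held 43.1 CPM of Vwf against at most 0.5 CPM elsewhere. The sum of the 6 endothelial markers, which include Pecam1 of leukocytes, was 281 CPM in it and 45.2 to 132 CPM in the other 5 libraries of its population. Of the 8 melanoma markers, Mlana at 96.7 CPM and Slc45a2 at 48.1 CPM were each the second highest of the 24 libraries. Sox10 (25.3 CPM), Dct (23.2), Mitf (12.2) and Pmel (2.5) were lower, and Tyr and Tyrp1 were at 0 in it. The part of these markers in the high GTPase values was not tested. Where leaving out this library ended or made a call of the 10 genes, turned a direction or moved a called value by more than 1.5 times, the value without it is given.

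**Figure D1:**
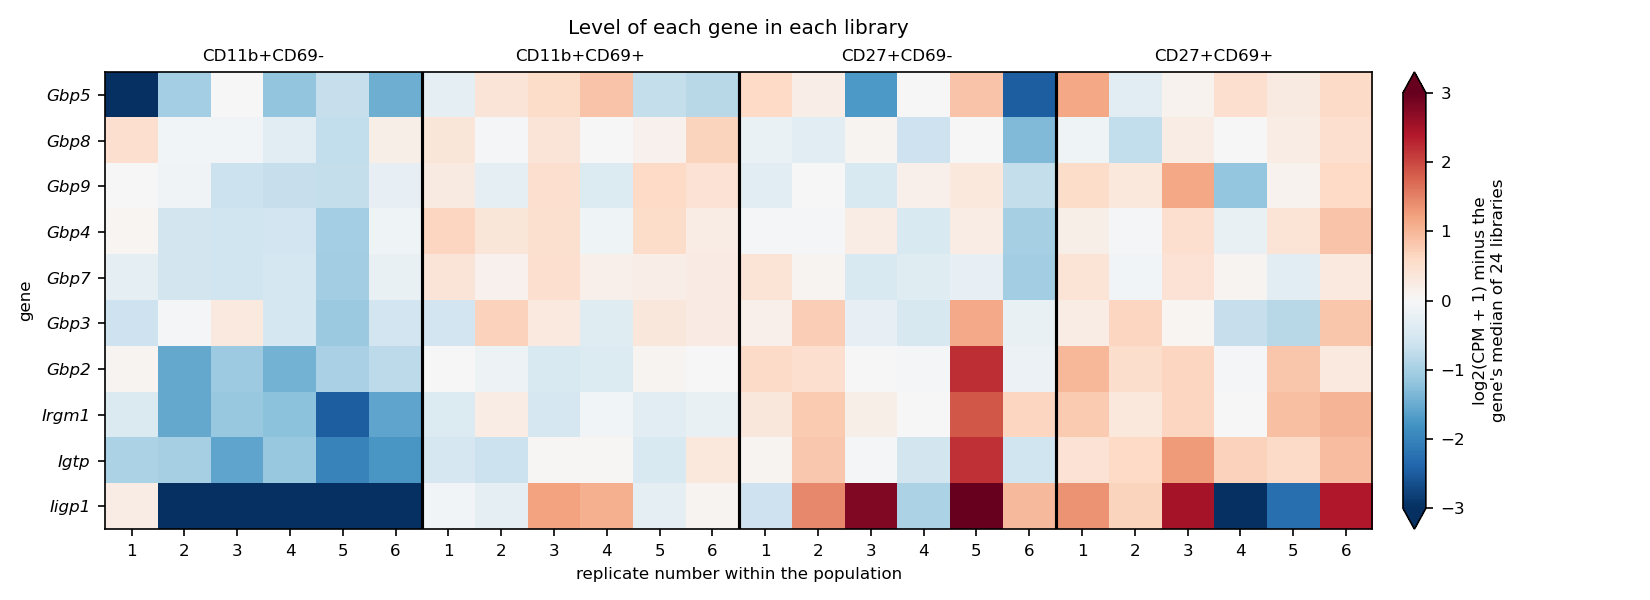
Level of each of the 10 genes (rows) in each of the 24 libraries (columns, by population and replicate number), as log2(CPM + 1) minus the gene's median over all libraries; the colour scale is capped at 3 on either side. CD27+CD69- replicate 5 is the reddest column, the highest value, for Gbp2, Gbp3, Irgm1, Igtp and Iigp1 and not for Gbp4, Gbp7 or Gbp8, while most CD11b+CD69- libraries are blue.

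Compared per kilobase (kb) of exon, Igtp had the highest median level of the 10 genes in every population: 47.8, 107, 124 and 191 CPM per kb in CD11b+CD69-, then CD11b+CD69+, then CD27+CD69- and last CD27+CD69+ cells. Irgm1 came next in both CD27+ populations, at 66.0 and 76.8 CPM per kb, followed by Gbp2 at 52.6 and 65.7. In CD11b+CD69- cells Irgm1 was lower, at 17.8 CPM per kb, below Gbp8 (42.8), Gbp4 (35.2) and Gbp7 (27.2). Gbp4 led the GBPs in CD11b+CD69+ cells at 70.5 CPM per kb. Gbp5 (1.78 to 5.26 CPM per kb) and Iigp1 (0 to 5.21) had the lowest medians throughout. Neighbours in this order mostly overlapped: in CD27+CD69+ libraries Igtp ran from 164 to 295 CPM per kb, above every value of the other 9 genes, whereas Irgm1 (46.0 to 93.5), Gbp2 (42.0 to 87.8) and Gbp4 (44.9 to 94.1) covered the same range. The length was that of all annotated exons of a gene merged: 2.02 kb for Igtp, 5.81 kb for Irgm1 and 7.49 kb for Gbp4. The order rests on these lengths. In CPM, not divided by length, Gbp4 had a higher median than Igtp in every population.

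**Figure D2:**
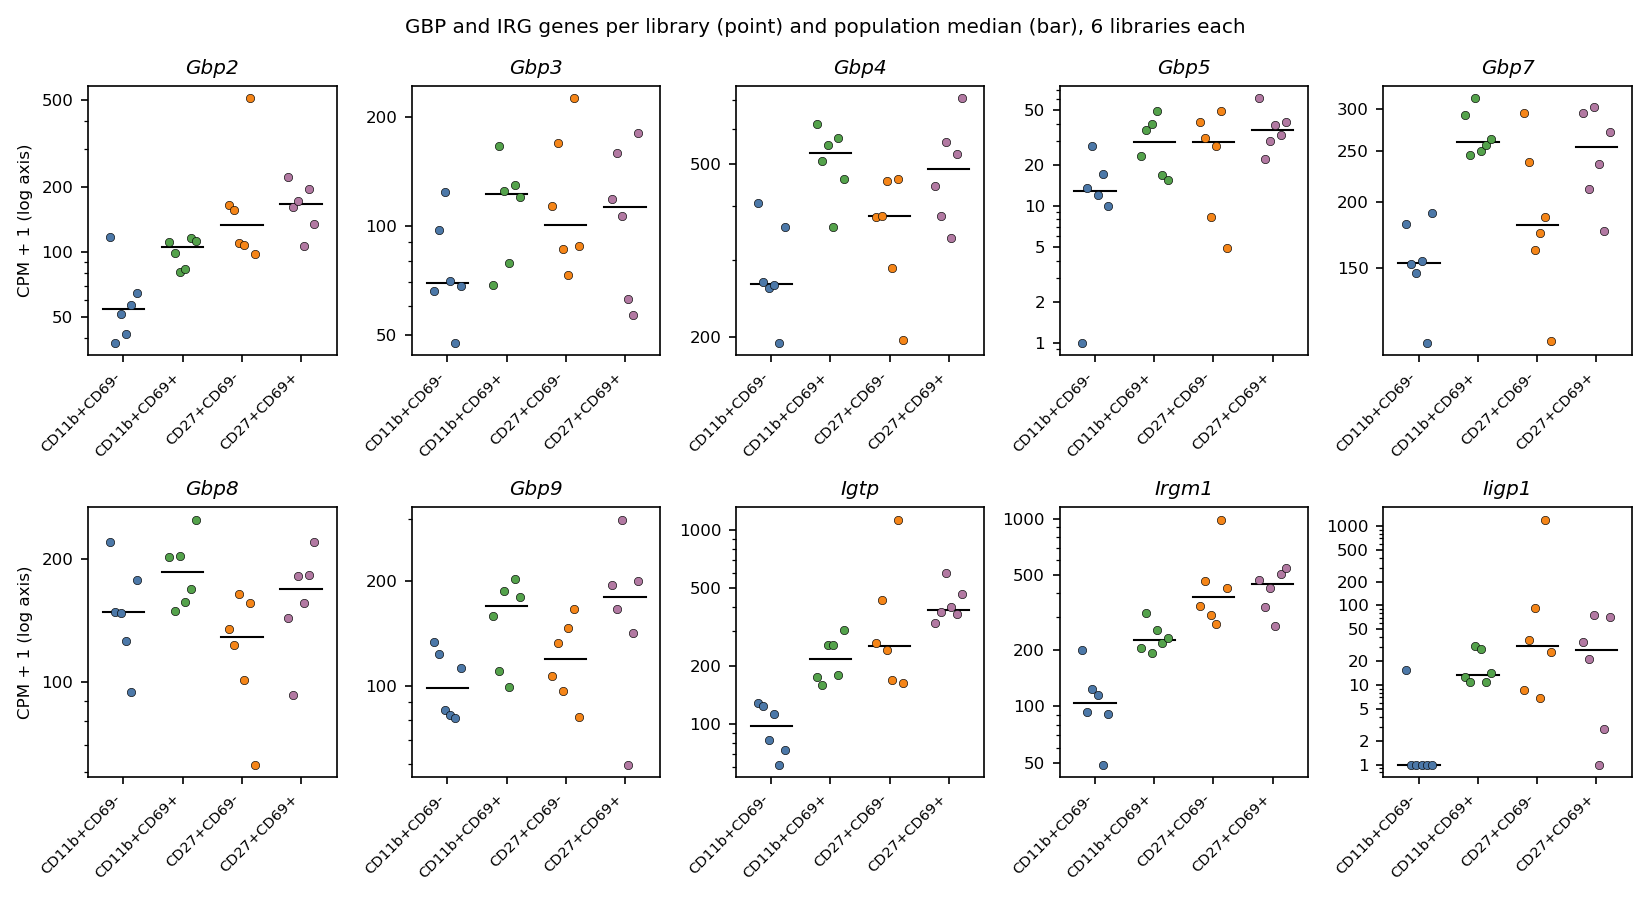
CPM + 1 (log axis, a separate range for each gene) of the 10 genes in each library (points) with the population median (bar). CD11b+CD69- libraries have the lowest median for 9 of the 10 genes, the exception being Gbp8, and the top point of CD27+CD69- for Gbp2, Gbp3, Igtp, Irgm1 and Iigp1 is replicate 5.

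The first comparison asked how CD69+ cells differ from CD69- cells among CD11b+ cells. Gbp7, Gbp4 and Irgm1 were higher in CD69+ cells at an adjusted p under 0.05, 3 of 10 genes, where 1.64% of the 10536 genes tested were called higher. None was lower (1.10% of all genes). Gbp7, a GBP linked to the oxidative defence of phagocytes, ran from 107 through a median of 153 to 189 CPM in CD11b+CD69- and from 244 through 259 to 314 CPM in CD11b+CD69+ libraries. The 2 groups of Gbp7 values did not overlap, which 1.60% of all genes showed in this direction, and the log2 difference was 0.80 (SE 0.18, edgeR adjusted p = 0.00928). Gbp4 ran from 192 through 264 to 404 CPM against 356 through 528 to 616 CPM, and CD69- replicates 1 and 6 reached the lowest CD69+ library. The log2 difference of Gbp4 was 0.82 (SE 0.20, edgeR adjusted p = 0.0207).

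Irgm1, the IRG best known for restraining other IRGs and for survival of lymphocytes under interferon gamma, ran from 48.0 through 103 to 198 CPM in CD11b+CD69- and from 191 through 224 to 314 CPM in CD11b+CD69+ libraries. Only the highest CD69- library, replicate 1, reached into the CD69+ range. The log2 difference was 1.08 (SE 0.28, edgeR adjusted p = 0.0309). Igtp ran from 60.7 through 96.7 to 127 CPM against 157 through 216 to 305 CPM. Its groups did not overlap, but the log2 difference of 1.19 (SE 0.35) missed the threshold (edgeR adjusted p = 0.0689). The spread of Igtp in that fit is shared with the CD27+ libraries, and without CD27+CD69- replicate 5 the same difference of 1.19 had an adjusted p of 0.00272. Igtp also passed without CD27+CD69- replicate 4 (adjusted p = 0.0475) or replicate 6 (0.0414).

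The calls of Gbp4 and Irgm1 each depended on single libraries. Gbp4 missed the threshold without CD11b+CD69- replicate 2 (edgeR adjusted p = 0.0515), replicate 3 (0.0516) or replicate 5 (0.0627) and without CD11b+CD69+ replicate 1 (0.0568). Irgm1 missed it without CD11b+CD69- replicate 2 (0.0750), 3 (0.0506), 4 (0.0563), 5 (0.0762) or 6 (0.0737) and without CD11b+CD69+ replicate 2 (0.0764), 4 (0.0648) or 6 (0.0535). With every gene that had at least 1 count kept in the fit, the adjusted p of Irgm1 was 0.112. Gbp7 was called whichever library was left out (adjusted p 0.00241 to 0.0308). With both CD11b+CD69- replicate 1 and CD27+CD69- replicate 5 left out, 6 of the 10 genes were called higher, adding Gbp2 (log2 difference 1.00, adjusted p = 0.00454), Igtp and Iigp1, against 2.33% of all genes called in either direction. This setting was chosen after seeing the data, and both libraries held outlying high values of these same genes. Iigp1 was then at 0 in every CD11b+CD69- library left. The added calls are therefore a description and lend no further support.

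Of the 6 other genes, Gbp2, Gbp5, Gbp8 and Gbp9 each had all 6 CD69+ libraries above the CD69- median without passing the test. Gbp2, which coats vacuoles of parasites, ran from 37.0 through 53.4 to 117 CPM against 79.9 through 104 to 116 CPM (log2 difference 0.71, SE 0.33, edgeR adjusted p = 0.321), and its highest CD69- library was replicate 1. Gbp5, which promotes inflammasome assembly, ran from 0 through 11.8 to 26.6 CPM against 14.4 through 28.4 to 48.8 CPM (log2 difference 1.21, SE 0.58, adjusted p = 0.354). Gbp9 had a log2 difference of 0.61 (SE 0.26, adjusted p = 0.265), Gbp3 of 0.54 (SE 0.30, adjusted p = 0.459) and Gbp8 of 0.31 (SE 0.22, adjusted p = 0.598). Iigp1 had 32 counts in CD11b+CD69- replicate 1 (14.5 CPM) and 0 in the other 5 CD69- libraries, where a count of 0 allows up to 3 counts. All 6 CD69+ libraries held Iigp1, from 9.93 through 12.4 to 29.9 CPM, and 4 of them lay below that CD69- replicate 1 value. The median log2 difference of the 10 genes was 0.81, beside 0.00 over all genes tested.

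**Figure D3:**
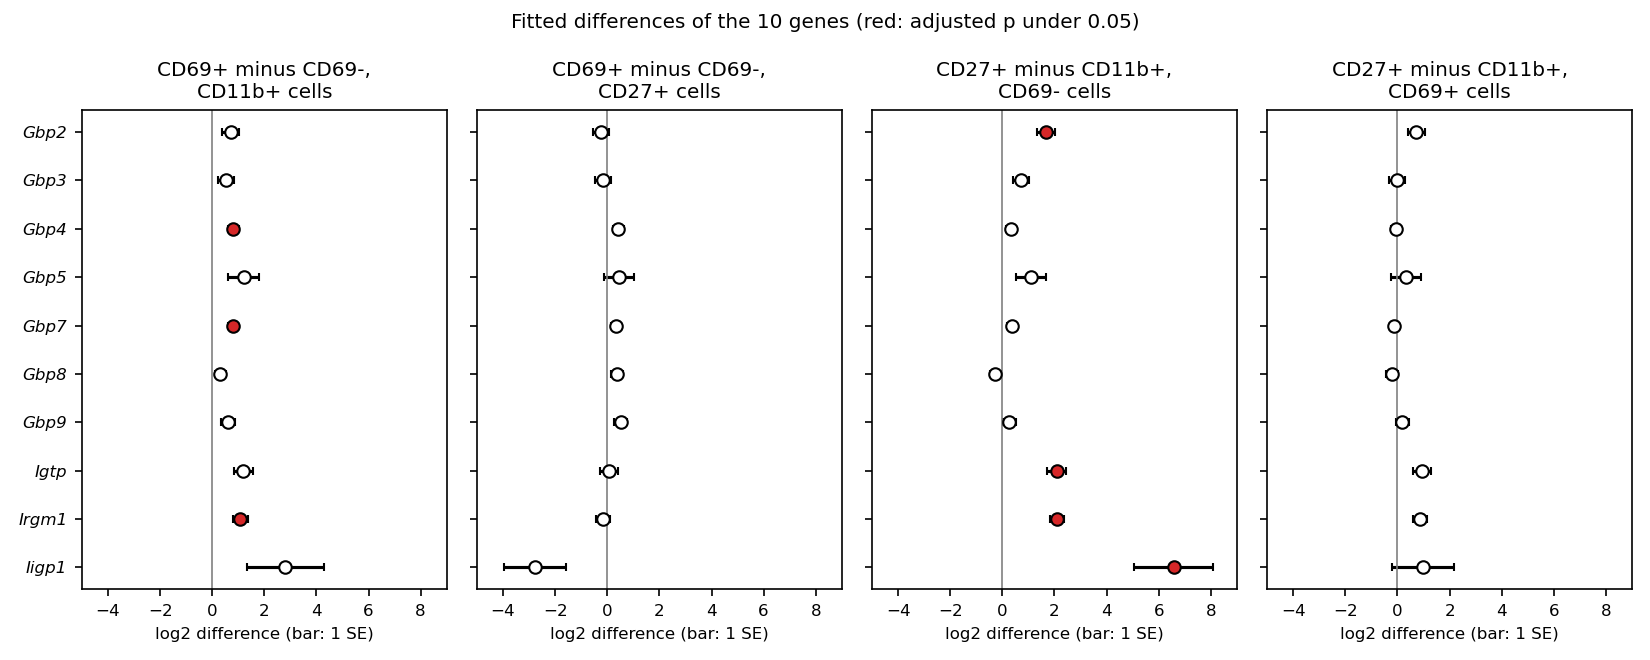
Fitted log2 difference of each gene (point) with 1 standard error (bar) in the 4 comparisons, red where the edgeR adjusted p was under 0.05. Points to the right of 0 are higher in the group named first; red points are Gbp4, Gbp7 and Irgm1 in the first panel and Gbp2, Igtp, Irgm1 and Iigp1 in the third, and the other panels have none.

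Among CD27+ cells, CD69+ and CD69- libraries were not told apart by any of the 10 genes in the edgeR test at 0.05 (0 called, beside 1.85% of all genes, 0.550% higher and 1.30% lower), although Gbp4 and Iigp1 had an unadjusted p of 0.0391 and 0.0302. DESeq2 also called none. Gbp4 ran from 195 through 377 to 459 CPM in CD27+CD69- and from 337 through 484 to 705 CPM in CD27+CD69+ libraries (log2 difference 0.43, SE 0.20, adjusted p = 0.405). Gbp7 ran from 108 through 180.2 to 294 CPM against 176 through 253 to 302 CPM (0.33, SE 0.18, adjusted p = 0.534). Gbp9 had a log2 difference of 0.52 (SE 0.26, adjusted p = 0.481), Gbp5 of 0.46 (SE 0.57, adjusted p = 0.902) and Gbp8 of 0.37 (SE 0.22, adjusted p = 0.622). For each of these 5 GBPs, 5 of the 6 CD69+ libraries lay above the CD69- median.

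The values of Gbp2, Gbp3, Igtp, Irgm1 and Iigp1 in this comparison turned on CD27+CD69- replicate 5. Igtp ran from 162 through 250.5 to 1127 CPM in CD27+CD69- and from 332 through 387 to 597 CPM in CD27+CD69+ libraries, and every CD69+ library lay above the CD69- median. The log2 difference of Igtp was 0.06 (SE 0.34, edgeR adjusted p = 0.991) with that library and 0.70 (adjusted p = 0.137) without it. Gbp2 went from -0.24 to 0.35 and Irgm1 from -0.16 to 0.20 without it. Iigp1 went from -2.78 (adjusted p = 0.348) to -0.03 (adjusted p = 0.997). Gbp3 went from -0.17 (SE 0.30, adjusted p = 0.944) to 0.07 (adjusted p = 0.987). Gbp5 went from 0.46 to 0.72.

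Among CD69- cells, 4 of the 10 genes were higher in CD27+ than in CD11b+ cells: Irgm1, Igtp, Gbp2 and Iigp1, where 7.46% of all genes tested were called higher. None was lower (4.92% of all genes). Irgm1 ran from 272 through 383 to 986 CPM in CD27+CD69- libraries, all above the 48.0 to 198 CPM of the CD11b+CD69- libraries, with a log2 difference of 2.10 (SE 0.29, edgeR adjusted p = 8.68e-06). Igtp ran from 162 through 250.5 to 1127 CPM, all above the 60.7 to 127 CPM of the CD11b+CD69- libraries, with a log2 difference of 2.08 (SE 0.36, adjusted p = 0.000234). Such a gap between the groups was seen for 3.65% of all genes. Gbp2 ran from 96.4 through 132 to 511 CPM against 37.0 through 53.4 to 117 CPM, with an overlap made by CD11b+CD69- replicate 1 alone (log2 difference 1.67, SE 0.33, adjusted p = 0.000909).

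These calls held without CD27+CD69- replicate 5, with smaller differences. Irgm1 had a log2 difference of 1.74 (edgeR adjusted p = 1.13e-05), Igtp of 1.44 (adjusted p = 0.000132) and Gbp2 of 1.09 (adjusted p = 0.00257). Iigp1, the effector IRG, was present in all 6 CD27+CD69- libraries, from 5.96 through 30.4 to 1195 CPM, against 1 of 6 CD11b+CD69- libraries. Its log2 difference was 6.57 (SE 1.53, adjusted p = 0.00538) with replicate 5 and 3.81 (adjusted p = 0.0317) without it, and limma-voom did not call it (adjusted p = 0.0900). The same libraries had the lower NK marker sums and, in 5 of 6, the fibroblast markers given above, and 7 of 8 tested T cell markers, 2 of 3 dendritic cell, 1 of 3 macrophage and 1 of 1 B cell markers were called higher in CD27+ cells. No melanoma marker passed the filter on low counts, and their sums are given above. The part of any of these in the differences was not tested.

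The remaining GBPs did not pass the test between CD27+ and CD11b+ cells that were CD69-. Gbp3 ran from 72.2 through 99.7 to 224 CPM against 46.5 through 68.5 to 123 CPM (log2 difference 0.71, SE 0.31, edgeR adjusted p = 0.146), and 0.47 (adjusted p = 0.393) without CD27+CD69- replicate 5. Gbp5 ran from 3.95 through 28.5 to 48.6 CPM against 0 through 11.8 to 26.6 CPM (1.09, SE 0.58, adjusted p = 0.266). Gbp4 (0.33, SE 0.20, adjusted p = 0.329), Gbp7 (0.35, SE 0.18, adjusted p = 0.234) and Gbp9 (0.27, SE 0.26, adjusted p = 0.600) had small positive differences. Gbp8 was the only one of the 10 with a negative difference (-0.27, SE 0.22, adjusted p = 0.512). The genes called here were the 3 IRGs and Gbp2, while Gbp4 and Gbp7, called with CD69 among CD11b+ cells, were not. The median log2 difference of the 10 was 0.90, beside 0.05 over all genes.

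Among CD69+ cells, no gene of the 10 was called between CD27+ and CD11b+ cells by edgeR, beside 1.90% of all genes, 0.987% higher and 0.911% lower. Unadjusted p-values under 0.05 were found for Igtp (0.0114), Irgm1 (0.00433) and Gbp2 (0.0335). Igtp ran from 332 through 387 to 597 CPM in CD27+CD69+ libraries, all above the 157 to 305 CPM of the CD11b+CD69+ libraries, a gap that 1.24% of all genes showed (log2 difference 0.94, SE 0.35, adjusted p = 0.212). Irgm1 ran from 267 through 446 to 543 CPM against 191 through 224 to 314 CPM, with 1 library of each population inside the other's range (0.86, SE 0.28, adjusted p = 0.121). Gbp2 ran from 106 through 165 to 221 CPM against 79.9 through 104 to 116 CPM (0.73, SE 0.32, adjusted p = 0.368), with an overlap at the low end.

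Whether these 3 genes passed turned on which libraries entered the fit. Without CD27+CD69- replicate 5, which is in neither population compared but enters the shared spread, Igtp had an adjusted p of 0.0234 and Irgm1 of 0.0458 at log2 differences of 0.95 and 0.86. In a fit of the 12 CD69+ libraries alone, Gbp2 (edgeR adjusted p = 0.0312), Igtp (0.00455) and Irgm1 (0.00560) were called, beside 2.48% of all genes in either direction. DESeq2 called Irgm1 (adjusted p = 0.0480). Iigp1 was at 0 in CD27+CD69+ replicate 4 and reached 74.5 CPM in replicate 3 (log2 difference 0.97, adjusted p = 0.875). The other 6 GBPs had log2 differences from -0.21 (Gbp8) to 0.34 (Gbp5), with adjusted p-values of 0.836 or more. Between the same 2 populations, 7 of 8 tested T cell and 1 of 3 dendritic cell markers were called higher in CD27+ cells, beside 0.987% of all genes. Of the 10 NK markers 5 were called lower, beside 0.911% of all genes. The part of any of these in the differences was not tested.

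The test over all 4 populations at once called 6 of the 10 genes, beside 14.1% of all genes. They were Irgm1 (edgeR adjusted p = 1.52e-05), Igtp (0.000325), Gbp2 (0.00204), Gbp7 (0.00715), Iigp1 (0.00760) and Gbp4 (0.0107). Gbp9 (0.125), Gbp8 (0.292), Gbp5 (0.301) and Gbp3 (0.400) were not called. Iigp1 was no longer called without CD27+CD69- replicate 5 (0.0995), and without CD27+CD69+ replicate 4, the library with the lowest Gbp9 value (58.6 CPM), Gbp9 was called (0.0109).

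An interaction term tested whether CD27+ and CD11b+ cells had unequal CD69 differences. No gene of the 10 passed in edgeR or in DESeq2, beside 0.579% of all genes in edgeR, and 9 of the 10 had a negative interaction value, Gbp8 being the exception at 0.06 (SE 0.31). Unadjusted p-values under 0.05 were found for Irgm1 (0.00368), Iigp1 (0.00739), Igtp (0.0291) and Gbp2 (0.0482), with interaction values of -1.24 (SE 0.39, adjusted p = 0.186), -5.59, -1.13 and -0.95. Without CD27+CD69- replicate 5 these were -0.88 for Irgm1 (adjusted p = 0.314), -2.83 for Iigp1 (0.605), -0.49 for Igtp (0.777) and -0.36 for Gbp2 (0.874), so those of Iigp1, Igtp and Gbp2 moved by more than 1.5 times. Gbp9, at -0.09 with it, was at 0.02 without it. Without CD11b+CD69- replicate 1, the one library of its population with Iigp1 counts, Irgm1 was at -1.48 (adjusted p = 0.0625), and Gbp8 turned from 0.06 to -0.07. A difference in the CD69 response between the 2 maturation states was therefore not shown for these genes. Without CD27+CD69- replicate 5 and CD11b+CD69- replicate 1 together, a setting chosen after seeing the data, Iigp1 alone passed (edgeR adjusted p = 0.0403). Iigp1 was then at 0 in every CD11b+CD69- library left.

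Across the 24 libraries the 10 genes were correlated with each other to different degrees. Gbp2, Igtp, Irgm1 and Iigp1 had pairwise Pearson correlations of log2(CPM + 1) between 0.74 and 0.88, 3 IRGs and a GBP. Without CD27+CD69- replicate 5 the values of these 6 pairs were 0.65 to 0.85. Gbp4 correlated with Gbp7 (0.80), Gbp8 (0.74) and Gbp9 (0.71), of which Gbp8 and Gbp9 share its locus. Gbp8 was close to uncorrelated with Irgm1 (0.05), Gbp3 (0.09) and Gbp2 (0.12) over all libraries. Taken as deviations from the population means, Gbp8 had correlations of 0.399 with Irgm1, 0.136 with Gbp3 and 0.407 with Gbp2, and the 6 pairs among Gbp2, Igtp, Irgm1 and Iigp1 had 0.595 to 0.666. The points share population and library scaling, so these values describe the table and carry no test.

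Among the genes outside the family whose levels were most like the 10, by Pearson correlation with the mean of the standardized members over 24 libraries over 8251 genes, were Apol7e (0.83) and Tap1 (0.83), a peptide transporter of antigen presentation. Evl (0.83), Cd274 (0.81), which encodes PD-L1, Ifit3 (0.81), an antiviral gene of type I interferon, and Lgals3bp (0.81) followed. This likeness partly restates the order of the populations.

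Of 19 other GBP and IRG genes, 12 passed the filter on low counts. With CD69 among CD11b+ cells 3 were higher, Gbp6, Tgtp2 and Ifi47, beside 1.64% of all genes tested. Tgtp2, an effector IRG, ran from 15.9 through 31.4 to 64.1 CPM in CD11b+CD69- and from 70.0 through 95.6 to 124 CPM in CD11b+CD69+ libraries without overlap (log2 difference 1.43, SE 0.30, edgeR adjusted p = 0.00598). Gbp6 had a log2 difference of 1.83 (SE 0.42, adjusted p = 0.0113) and Ifi47 of 0.67 (SE 0.18, adjusted p = 0.0350). No gene of the list was called with CD69 among CD27+ cells by edgeR or DESeq2, and 1 had an unadjusted p under 0.05. Ifi47 was called there without CD27+CD69- replicate 5.

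In CD27+ against CD11b+ cells that were CD69-, 8 of the 12 tested were higher: Gbp6, Gbp10, Irgm2, Tgtp1, Tgtp2, Gm12250, Gm4951 and Gm12185. They stand beside 7.46% of all genes called higher there. Tgtp1, nearly a copy of Tgtp2, ran from 0 through 1.1 to 5.7 CPM in CD11b+CD69- and from 31.1 through 78.8 to 345 CPM in CD27+CD69- libraries, so that every CD27+ library was far above every CD11b+ one (log2 difference 6.00, SE 0.67, edgeR adjusted p = 4.26e-07). Tgtp1 and Tgtp2 were also the 2 called among CD69+ cells, beside 0.987% of all genes higher. Their log2 differences there were 3.45 (SE 0.57, edgeR adjusted p = 0.000544) and 1.39 (SE 0.29, adjusted p = 0.00675). Irgm2, the third regulatory IRG, ran from 0 through 10.7 to 37.2 CPM against 44.2 through 69.3 to 303 CPM among CD69- cells (2.93, SE 0.60, adjusted p = 0.00117). Gm4951 had 0 counts in all 12 CD11b+ libraries and 425 in the CD27+CD69- libraries, at least 167-fold higher against a floor of 3 counts over the group. Of those counts 340 came from replicate 5, and the other 5 libraries, with 85 counts, gave a bound of at least 41.9-fold. Without CD27+CD69- replicate 5, 6 of 13 tested were called among CD69- cells, beside 12.4% of all genes in either direction. Gm12250 and Gm12185 were not among them. Reads of Tgtp1 and Tgtp2, and of Irgm2 and Igtp, may be shared between the 2 genes of each pair.

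**Figure D4:**
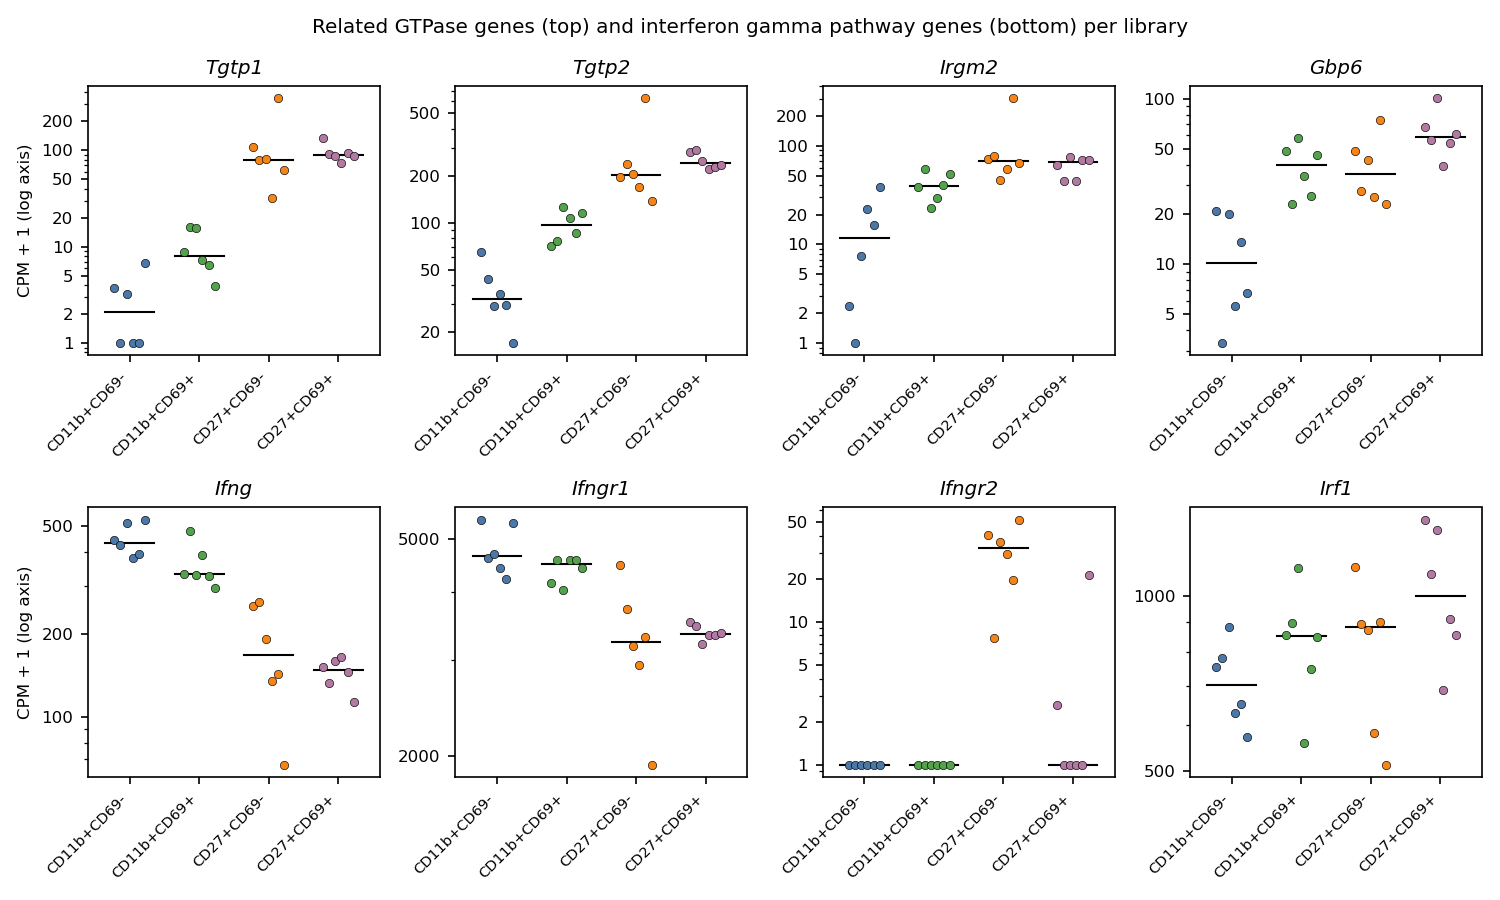
CPM + 1 (log axis, a separate range for each gene) in each library (points) with the population median (bar) for 4 related GTPase genes (top row) and 4 genes of interferon gamma signalling (bottom row). Tgtp1 and Tgtp2 are higher in every CD27+ library than in any CD11b+ library of the same CD69 state, while Ifng runs the other way.

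Ifng, the gene of interferon gamma, was lower where the IRGs were higher. It ran from 382 through 433 to 526 CPM in CD11b+CD69-, 295 through 331 to 477 in CD11b+CD69+, 65.6 through 167 to 262 in CD27+CD69- and 112 through 148 to 164 in CD27+CD69+ libraries. The CD27+ libraries lay below all CD11b+ libraries of the same CD69 state, with log2 differences of -1.32 (SE 0.21, edgeR adjusted p = 6.15e-05) among CD69- and -1.32 (SE 0.21, adjusted p = 0.000334) among CD69+ cells. Of the 12 interferon gamma ligand, receptor and signal genes, all tested, none was called with CD69 in either CD11b+ or CD27+ cells. At an unadjusted p under 0.05 they were 1 and 3, and DESeq2 called none in either. Among CD69- cells, 2 were higher in CD27+ cells (Socs3 and Ifngr2) and 3 lower (Ifng, Ifngr1 and Stat3), beside 7.46% and 4.92% of all genes. Ifngr1, the ligand-binding chain, had a log2 difference of -0.53 (SE 0.12, adjusted p = 0.00205) and Stat3 of -0.54 (SE 0.17, adjusted p = 0.0306). Socs3, a feedback inhibitor, was higher by 0.97 (SE 0.28, adjusted p = 0.0213).

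Ifngr2, the second receptor chain, had 0 counts in all 12 CD11b+ libraries and 323 in the CD27+CD69- libraries, where it ran from 6.64 to 50.6 CPM, at least 127-fold higher against a floor of 3 counts over the group. The fibroblast, melanoma and, in replicate 5, endothelial markers given above were in these same libraries, and their part in the Ifngr2 counts was not tested. Of the 6 CD27+CD69+ libraries only replicate 1 and replicate 6 had any Ifngr2, so the median there was 0. Irf1, a transcription factor induced by interferon gamma, ran from 571 through 701 to 881 CPM in CD11b+CD69- and from 687 through 999 to 1350 CPM in CD27+CD69+ libraries and passed no test.

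Other interferon targets moved partly with the GTPases. With CD69 among CD11b+ cells, 6 of 13 tested antigen presentation genes were higher, beside 1.64% of all genes. These were Psmb8, Psmb9, Psme1, Psme2, Tap1 and B2m, by 0.35 (B2m) to 0.93 (Tap1) on the log2 scale. In CD27+ cells, where none of the 10 GTPase genes was called with CD69, 5 of these 13 were higher, beside 0.550% of all genes. Psmb8, Psmb9, Psme1, Psme2 and Nlrc5 were higher there by 0.48 to 0.89. Between CD27+ and CD11b+ cells that were CD69-, Psmb9 (0.54, SE 0.11, edgeR adjusted p = 0.000976) and Cd274 (1.34, SE 0.33, adjusted p = 0.00674) were higher and Nlrc5 was lower (-0.77, SE 0.24, adjusted p = 0.0328). All genes had 7.46% higher and 4.92% lower there. Psmb8 was the one called among CD69+ cells (0.36, SE 0.10, edgeR adjusted p = 0.0442), beside 0.987% of all genes higher.

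Of 18 tested antiviral genes of type I interferon, 10 were higher with CD69 among CD11b+ cells, beside 1.64% of all genes. They were Bst2, Ifi44, Ifit1, Ifit3, Ifit3b, Isg20, Oas1a, Oasl2, Rsad2 and Xaf1. In CD27+ against CD11b+ cells that were CD69-, 8 were higher, beside 7.46% of all genes: the same genes without Ifit1 and Xaf1. With CD69 among CD27+ cells 0 were called, and between CD27+ and CD11b+ cells that were CD69+ also 0. All genes had 1.85% and 1.90% called in these, in either direction. In the comparisons with 0, DESeq2 also called none, and 4 and 0 had an unadjusted p under 0.05. Bst2, which tethers virus to the cell, had a log2 difference of 1.69 (SE 0.20, edgeR adjusted p = 8.04e-06) with CD69 among CD11b+ cells. Its difference was 1.41 (SE 0.20, edgeR adjusted p = 2.08e-05) between CD27+ and CD11b+ cells that were CD69-. For 5 of the 18, Rsad2, Ifi44, Oasl2, Isg20 and Bst2, the CD69 difference was smaller in CD27+ than in CD11b+ cells by the interaction test. That test called 0.342% of all genes lower and none of the 10 GTPase genes. Of 8 receptor and signal genes of type I interferon, Usp18 (2.74, SE 0.41, edgeR adjusted p = 0.000154) and Isg15 (1.98, SE 0.43, adjusted p = 0.00764) were higher with CD69 among CD11b+ cells. They stand beside 1.64% of all genes higher there. In the other comparisons edgeR called none of the 8, where 1 to 4 had an unadjusted p under 0.05. DESeq2 called 1 of the 8 with CD69 among CD27+ cells and 1 in CD27+ against CD11b+ cells that were CD69-. In the latter Usp18 lay at the threshold (log2 difference 1.19, edgeR adjusted p = 0.0501) and was called without CD27+CD69- replicate 5 (0.0461) and under both other scalings.

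IRGs and GBPs need the ATG8 conjugation machinery to find their target membranes. Prenylation attaches some of the GBPs to membranes, and caspases act downstream of GBPs. Of 18 such genes tested, Casp4, the caspase that senses bacterial lipopolysaccharide, was higher with CD69 among CD11b+ cells (log2 difference 1.15, SE 0.32, edgeR adjusted p = 0.0462) and Casp1 among CD27+ cells (0.61, SE 0.15, adjusted p = 0.0357). In CD27+ against CD11b+ cells that were CD69-, Fnta, a farnesyl and geranylgeranyl transferase subunit, was higher (0.83, SE 0.24, adjusted p = 0.0192), and Gabarapl2, an ATG8 protein (-0.40, SE 0.13, adjusted p = 0.0363), and Gsdmd, the pore-forming target of the caspases (-0.65, SE 0.20, adjusted p = 0.0308), were lower. These 3 of 18 stand beside 12.4% of all genes called in either direction there, and the 1 of 18 with CD69 beside 2.74% among CD11b+ and 1.85% among CD27+ cells. Without CD27+CD69- replicate 5, Casp4 (adjusted p = 0.0537), Gabarapl2 (0.0921) and Gsdmd (0.0541) were not called, Map1lc3b was called lower with CD69 among CD27+ cells (0.0375), and Fnta was the 1 gene called between CD27+ and CD11b+ cells that were CD69-. Without CD11b+CD69- replicate 1 as well, no gene was called in that last comparison. None was called among CD69+ cells by edgeR or DESeq2, and 1 had an unadjusted p under 0.05.

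A further list held 10 receptors and factors through which cytokines such as IL-12, IL-18 and IL-15 act on NK cells. In CD27+ against CD11b+ cells that were CD69-, 5 of the 10 were lower, beside 4.92% of all genes. Il12rb2 (-1.70, SE 0.21, edgeR adjusted p = 2.45e-06), Il18rap (-1.27, SE 0.14, adjusted p = 3.5e-07) and Tbx21 (-1.14, SE 0.24, adjusted p = 0.00143) had the largest of these differences, and Il2rg (-0.48) and Stat4 (-0.38) were lower by less. With CD69, Il18rap was lower among CD11b+ cells (-0.75, SE 0.14, edgeR adjusted p = 0.00153), beside 1.10% of all genes. Il2rg was higher with CD69 among CD27+ cells (0.51, SE 0.11, adjusted p = 0.0131), beside 0.550% of all genes. None of the 10 was called among CD69+ cells by edgeR, where 4 had an unadjusted p under 0.05 and DESeq2 called 1.

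Several calls of list genes ended when single libraries of the 24 were left out in turn. Psmb8 among CD69+ cells and Casp4 each lost the call when any 1 of 17 libraries was left out, and Ifi47 with CD69 among CD11b+ cells and Nlrc5 with CD69 among CD27+ cells when any 1 of 9 was left out. Gsdmd and Stat4 lost it when any 1 of 7 was left out, Stat3, Gabarapl2, Gm12185 and Nlrc5 between CD27+ and CD11b+ cells when any 1 of 6 was left out, Gbp10 when any 1 of 5 was left out and Casp1 when any 1 of 4 was left out. Socs3 lost it without CD11b+CD69- replicate 2 or CD27+CD69- replicate 1, and Psmb8 with CD69 among CD11b+ cells without CD11b+CD69- replicate 4 or CD11b+CD69+ replicate 4. Psme1 with CD69 among CD27+ cells lost it without CD27+CD69- replicate 6. With CD69 among CD11b+ cells, the antiviral gene Xaf1 lost it when any 1 of 16 libraries was left out. One of these was CD27+CD69- replicate 5 (edgeR adjusted p = 0.0574). Ifit1 lost it there when any 1 of 11 was left out and Ifit3b when any 1 of 5 was. Of the 5 antiviral genes that passed the interaction test, Isg20 lost the call when any 1 of 11 libraries was left out and Oasl2 when any 1 of 8 was left out, while Rsad2, Ifi44 and Bst2 kept it whichever library was left out. Tgtp1, Tgtp2, Irgm2, Gbp6, Gm4951, Ifng, Ifngr1, Ifngr2, Usp18, Isg15 and Fnta kept each call named above whichever library was left out.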

How the data were processed

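Raw counts for each Ensembl gene in 24 libraries were deposited, without normalization. Per the submitters' processing notes, HTSeq, Picard and GRCm38 were used; no aligner, annotation release or strandedness is named in the sources used here. Per the labels' protocols, SMART-Seq v4 cDNA carried no molecular identifiers or strand, so limits of detection cover counting error only.

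Counts were tested in edgeR 4.0.16 (R 4.3.3) by the quasi-likelihood F-test, with 4 group means over 24 libraries, TMM scaling, filterByExpr (minimum count 10) and Benjamini-Hochberg adjustment over 10536 genes at a threshold of 0.05. All 10 members passed the filter. Alternatives were DESeq2 1.42.0, limma-voom (limma 3.58.1), other scalings and filters, fits of 2 populations, a replicate block and leaving out libraries. The tests were checked on simulated counts.

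The members, lists and rules were chosen with earlier results of these data known: all 10 members, each list gene past the threshold, and the 6 genes most like the members (mean of at least 10 CPM, no clone names or pseudogenes) were named. 1 gene is not reported here and was left out of its list and of the likeness ranking. The M numbers in the titles are not explained. Same-numbered libraries mostly did not deviate together (median r 0.002 over 36 pairs), so they were not paired. The 1 pair with r over 0.1 was replicate 6 of CD27+CD69- and CD27+CD69+ (r 0.207). Whether replicates are separate animals is not said, and p-values then reflect only the variation among libraries, which may be technical. Libraries of 1 population differed by more than counting noise (chi-square per degree of freedom from 10.8 to 35.7 over 60 pairs).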

Additional observations from a re-analysis of the deposited data

Results flagged for a closer look

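Among 40 sets of 6 values (10 genes in 4 populations), 6 had a highest library far from the others by Dixon's criterion, which chance flags in about 1 of 20 sets. In CD27+CD69- replicate 5 these were Gbp2 at 511 CPM (next 163), Igtp at 1127 CPM (next 434), Irgm1 at 986 CPM (next 464) and Iigp1 at 1195 CPM (next 91.6). In CD11b+CD69- replicate 1 they were Gbp2 at 117 CPM (next 63.7) and Iigp1 at 14.5 CPM (0 in the other 5 libraries).

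The CD69 difference was smaller in CD27+ than in CD11b+ cells, by the interaction test of edgeR, for 5 antiviral genes: Ifi44 (adjusted p = 1.4e-05), Rsad2 (0.0153), Bst2 (0.0153), Oasl2 (0.0331) and Isg20 (0.0347). The same test called 0.342% of all genes lower. The size is given for those with counts in every population: -1.40 for Bst2 (SE 0.28), -3.29 for Oasl2 (SE 0.74) and -2.33 for Isg20 (SE 0.53). Isg20 was not called when any of 11 single libraries was left out, and Oasl2 when any of 8 was.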

How the results depend on the processing

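Counts of the 10 genes past the threshold stayed within 1.5 times the main count in 187 of 196 recomputed counts. This range includes 0 against 0 and 2 against 3, so a single call could end within it, as that of Irgm1 did with the block given below. Among CD69+ cells, DESeq2 called 1 gene and the fit of the 2 populations alone 3, against 0. Leaving out libraries gave 1 to 6 genes for CD69 in CD11b+ cells, 0 to 3 for CD27+ against CD11b+ in CD69+ cells and 0 to 1 for the interaction; the highest value of each came without CD11b+CD69- replicate 1 and CD27+CD69- replicate 5 together, a setting chosen after seeing the data. With the replicate number as a block, 2, 0, 4, 0 and 0 genes were called in the 5 comparisons and 5 over the 4 populations; the block ended the calls of Irgm1 with CD69 in CD11b+ cells (adjusted p = 0.0515) and of Iigp1 over the 4 populations (0.154), and the numbers are only shared labels. In CD27+ cells the CD69 difference ran from -0.37 to 0.35 for Gbp2, from -0.28 to 0.20 for Irgm1 and from -0.10 to 0.70 for Igtp over the omissions of libraries; the highest value of each was without CD27+CD69- replicate 5, and that of Igtp turned negative without single other CD27+ libraries. That of Iigp1 between CD27+ and CD11b+ cells in CD69+ cells was -0.34 in limma-voom; the cause was not tested. Other scalings moved the median of all genes by at most 0.091. Depth limits Iigp1 and Gbp5, at 0 in 6 and 1 of 24 libraries.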
